A study of Mus musculus with 10 samples.

Results

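The genes described here are 43 genes of the Wnt signalling pathway, of 24500 genes counted in the series. They were chosen by gene symbol, with earlier results of these data known, and comprise 19 Wnt ligands, 10 Frizzled receptors, 10 secreted antagonists of the Dkk and secreted Frizzled-related families with Wif1, and 4 R-spondin agonists. All 43 were found in the count tables. ChIP-seq (sequencing of DNA fragments that are pulled down with an antibody) was carried out in E14 cells, a mouse embryonic stem (ES) cell line whose strain the labels give as 12910la. One antibody was against H3K27me3, a histone mark of gene silencing, and the other against EZH2, the enzyme of Polycomb repressive complex 2 (PRC2) that places the mark. Control cells were wild type. The ex14D cells were edited with CRISPR-Cas9 so that exon 14 of Ezh2 was disrupted and, in the design of the study, only the EZH2 isoform without exon 14 stays functional. The labels call them a knockout, and the sample titles read Ezh2KO, a name the paper also uses for a separate Ezh2 knockout line. They are taken here as the ex14D cells, the mutant for which the paper describes ChIP-seq. Each genotype had 2 H3K27me3 libraries, 2 EZH2 libraries and 1 library of input chromatin, 10 libraries in all, and nothing in the labels says whether libraries came from separate cultures or separate edited clones. The p-values therefore measure the spread between libraries, which may be technical.

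Wnt ligands are secreted, lipid-modified proteins that bind Frizzled receptors on neighbouring cells. In the canonical branch, binding protects beta-catenin from destruction, so that it can activate target genes together with factors of the TCF and LEF family. Several Dkk proteins can block the Lrp5 and Lrp6 co-receptors, and secreted Frizzled-related proteins and Wif1 bind the ligands themselves. R-spondins raise the response by keeping Frizzled receptors at the cell surface. Many of the ligand genes are used only after ES cells begin to differentiate, above all in mesoderm and neural tissue, and they are known as PRC2 targets in undifferentiated cells.

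H3K27me3 and input reads were counted by the authors in a 1 kb window at each gene's start, and the values below are CPM, promoter counts scaled to 1000000 promoter reads of a library. Promoter reads numbered 409371 and 416778 in the inputs and 594289 to 1450937 in the H3K27me3 libraries, so that 3 reads, taken as the floor, are worth 2.07 to 7.33 CPM. EZH2 reads on genes numbered 13628137 to 18403892. The EZH2 counts followed gene length, so that a value takes in reads over the body of a gene as well as its start. The sources used here name no added reference chromatin, so every value is a share of its library. Fewer cells that carry a mark and less of it in each cell cannot be told apart. Counts at Ezh2 itself cannot check the genotype. Of 8 ES cell marker genes, 7 had H3K27me3 below input in all 4 libraries (Pou5f1, Nanog, Sox2, Zfp42, Esrrb, Dppa5a and Tdgf1), and only Klf4 was marked, at 3.50-fold and 2.42-fold over input in control. The median of all genes was below input too, at 0.37-fold and 0.35-fold in control and 0.26-fold and 0.28-fold in ex14D. Esrrb lay above that median in control, at 0.74-fold and 0.75-fold. A value below input therefore does not set the markers apart from other genes.

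In control cells most of the 43 promoters carried H3K27me3. The mark was at least 2-fold over input in both control libraries at 34 of them, against 11.3% of all genes, and in both ex14D libraries at 29, against 9.14% of all genes. By role, 17 of 19 ligands, 7 of 10 receptors, 6 of 10 antagonists and 4 of 4 R-spondins were marked in control. In ex14D the numbers were 17 ligands, 3 receptors, 5 antagonists and 4 R-spondins. Wnt16, Fzd4, Fzd6, Fzd8, Fzd9 and Sfrp2 were marked in control and not in ex14D, and Wnt8a in ex14D and not in control. The difference between the genotypes depends on scaling and threshold. With CPM over all counted reads 40 genes were marked in control and 39 in ex14D, and at 4-fold over input 21 and 23. Sfrp2 had 99.3 and 106 CPM in control and 105 and 102 CPM in ex14D, with inputs of 36.6 and 52.8 CPM. Wnt16 stood at 1.99-fold and 2.06-fold in ex14D. Fzd10 is counted as marked in both genotypes, with inputs of 2 and 0 reads, at which the ratio cannot be read. These counts are descriptions, since 1 input library per genotype gives no replicate error for the ratio.

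The ligands were the most strongly marked of the 4 groups. Their median over the 19 promoters was 424.0 and 440 CPM in the control libraries, while the receptors had medians of 124 and 121 CPM, the antagonists 112 and 157 CPM and the R-spondins 224 and 180 CPM. The median of all genes was 11.8 and 11.7 CPM. The windows are of equal length, but input reads over them ranged from 0 to 30 among the 43 genes and the CPM are not corrected for that. Wnt1, a ligand of the midbrain and hindbrain border, had the highest mean control level of the ligands, with 589 and 612 CPM against 41.5 CPM in its input. Wnt6 followed with 601 and 572 CPM and Wnt2b with 596 and 555 CPM, and these 3 do not differ beyond the spread of their libraries. Over input the order differs, with Wnt10a at 14.8-fold and 16.1-fold in control above Wnt1 at 13.9-fold and 14.4-fold. At the other end lay Wnt8b, a ligand of the forebrain, with 42.1 and 37.3 CPM in control, 26.2 and 13.6 CPM in ex14D and 53.7 and 45.6 CPM in the inputs. Wnt8b was the only ligand below its input in all 4 H3K27me3 libraries. Its mean control level still exceeded that of 80.6% of all genes. H3K27me3 peaks covered 37.0% and 66.4% of the gene in the control libraries, but reached the window at its start only in the first ex14D library.

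Among the receptors, Fzd3 had 222 and 208 CPM in control and 248 and 180 CPM in ex14D, with overlapping groups. Fzd9 had 197 and 174 CPM in control against 118 and 91.3 CPM in ex14D, and Fzd1 had 168 and 177 CPM against 154 and 139 CPM. Fzd7, a receptor that ES cells are known to use, stood at the bottom with 42.1 and 8.54 CPM in control and 8.27 and 7.21 CPM in ex14D, below its inputs of 65.95 and 43.2 CPM. It did not pass the filter on low counts and was the only one of the 43 genes not tested for H3K27me3. Of the antagonists, Sfrp5 had 476 and 316 CPM in control and 336 and 296 CPM in ex14D, and Frzb had 323 and 370 CPM in control and 377 and 373 CPM in ex14D. Sfrp1 had 288 and 228 CPM in control and 219 and 151 CPM in ex14D. Sfrp5 overlapped between the genotypes, and Frzb and Sfrp1 lay apart by less than the spread within a genotype. Dkk4 was lowest, with 21.9 and 24.5 CPM in control, 11.03 and 16.0 CPM in ex14D and no peak or domain in any library. Of the R-spondins, Rspo1 had 375 and 347 CPM in control and 307 and 281 CPM in ex14D, and Rspo2 had 288 and 197 CPM against 242 and 208 CPM. Rspo4 had 160 and 162 CPM against 126 and 110 CPM, and Rspo3, the lowest, 145 and 145 CPM against 142 and 125 CPM.

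**Figure D1:**
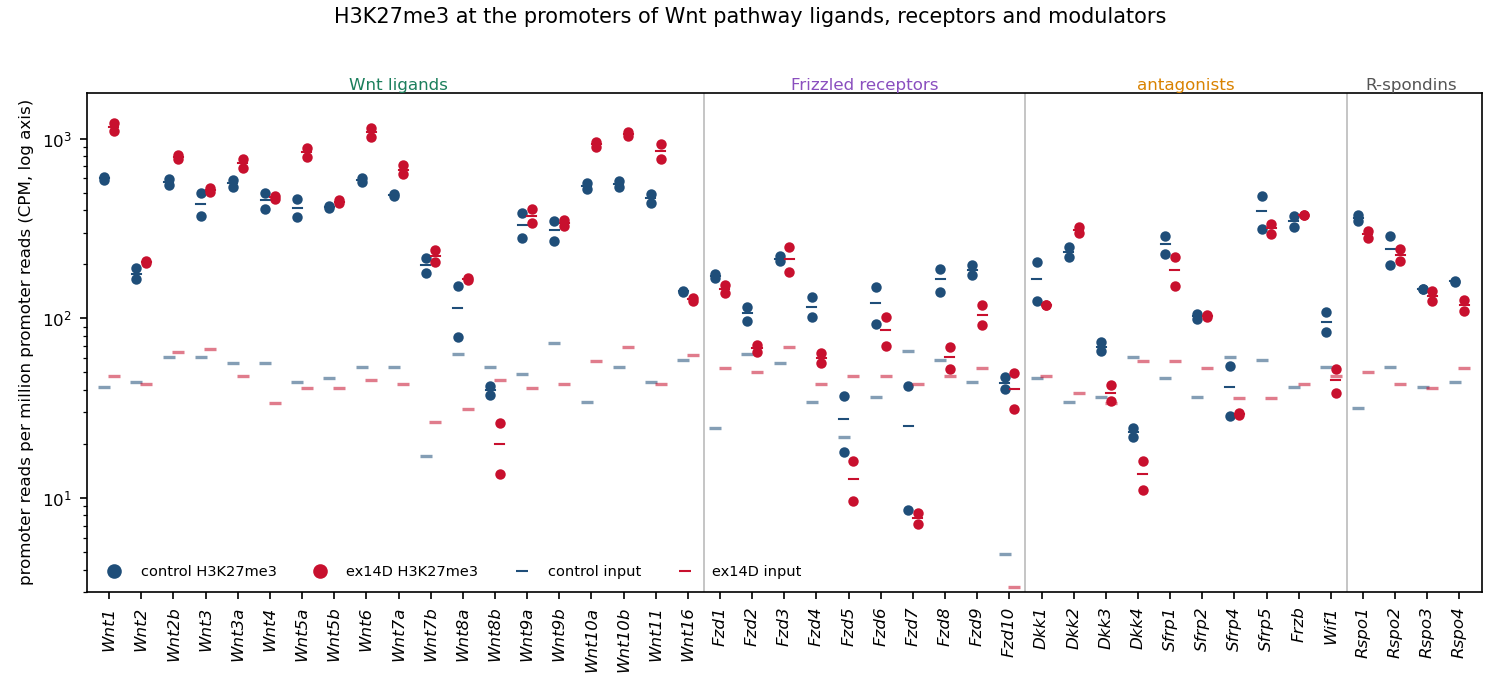
H3K27me3 promoter reads in CPM in each library (points, log axis) for the 43 genes grouped by role, with the mean of 2 libraries as a thin line and the single input library of each genotype as a short pale bar (the ex14D input of Fzd10, with 0 reads, is drawn near the lower edge). Wnt1, Wnt6 and Wnt10b exceed 1000 CPM in both ex14D libraries, whereas Fzd8 falls from 188 and 141 CPM to 69.6 and 52.1 CPM.

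The deposited intervals gave a similar picture of which promoters were bound. A MACS2 broad peak of H3K27me3 lay over the window of 1000 bp at the gene start in both control libraries at 38 of the 43 genes and in both ex14D libraries at 37, against 18% and 16.5% of all genes. Fzd7 and Dkk4 had no peak in any library, and Wif1 lost its peak in the second ex14D library. An EZH2 domain covered the window in both control libraries at 38 genes and in both ex14D libraries at 35, against 16.8% and 10.4% of all genes. Of the 3 genes lost from this count, Fzd7 and Wif1 had a domain in neither ex14D library and Dkk3 had one only in the first. The widest peaks lay over ligands. Wnt6 and Wnt10a, neighbours on chromosome 1 with starts 20.1 kb apart, were under a single H3K27me3 peak of 43.3 and 47.1 kb in the control libraries and 46.1 kb in the first ex14D library, and under 2 separate peaks in the second. Wnt8a, not counted as marked in control by the ratio to input, had peaks of 25.1 and 28.6 kb in control and of 25.6 kb in both ex14D libraries. Wnt1 had peaks of 23.6 and 25.4 kb in control and 23.1 and 22.6 kb in ex14D, and Wnt11 had peaks of 15.7 and 20.3 kb against 27.9 and 23.8 kb.

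Promoter sequences show how rich these starts are in CG dinucleotides, which PRC2 target promoters are known for. RefSeq promoters (GRCm38.p6, 250 bases before to 50 after the gene start) were matched for 29 of the 43 genes. The letters CG, which read the same on both strands, occurred a median of 29 times in these 300 bases, against 13 times over 17511 promoters of all genes and 22 times over the 1935 promoters marked in control. At least 1 CG is in 95.3% of all promoters, and 57.2% hold 10 or more. Wnt1 is shown because it had the second largest rise of H3K27me3, and Wnt10b as its divergent neighbour with a rise of like size. Fzd9 is shown as a CG-dense receptor promoter marked in control, and Fzd7 as a receptor promoter without the mark. Wnt10b, Fzd9 and Fzd7 were chosen after their values were seen. Among the receptors a marked promoter was not always the richer in CG. Fzd5, with 38 CG, was marked in neither genotype, and Fzd1, with 16, in both. The Wnt1 promoter (chr15:98789607-98789906, forward strand) holds 26 CG, that of Wnt10b (chr15:98778101-98778400, reverse strand) 18, that of Fzd9 (chr5:135250998-135251297, reverse strand) 53 and that of Fzd7 (chr1:59481897-59482196, forward strand) 24. Each CG is in capitals.
Wnt1: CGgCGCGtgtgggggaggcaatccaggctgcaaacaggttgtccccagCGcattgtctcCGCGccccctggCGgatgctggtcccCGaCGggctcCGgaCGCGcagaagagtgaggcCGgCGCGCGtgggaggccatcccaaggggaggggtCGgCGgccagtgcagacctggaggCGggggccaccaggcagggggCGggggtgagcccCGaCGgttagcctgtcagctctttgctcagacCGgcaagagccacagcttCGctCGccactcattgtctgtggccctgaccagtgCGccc
Wnt10b: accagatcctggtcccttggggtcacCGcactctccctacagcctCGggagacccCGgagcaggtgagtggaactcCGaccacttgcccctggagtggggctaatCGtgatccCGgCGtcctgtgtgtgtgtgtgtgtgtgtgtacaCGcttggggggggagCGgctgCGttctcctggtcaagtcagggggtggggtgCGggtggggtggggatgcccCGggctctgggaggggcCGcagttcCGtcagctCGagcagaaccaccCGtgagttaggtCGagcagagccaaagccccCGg
Fzd9: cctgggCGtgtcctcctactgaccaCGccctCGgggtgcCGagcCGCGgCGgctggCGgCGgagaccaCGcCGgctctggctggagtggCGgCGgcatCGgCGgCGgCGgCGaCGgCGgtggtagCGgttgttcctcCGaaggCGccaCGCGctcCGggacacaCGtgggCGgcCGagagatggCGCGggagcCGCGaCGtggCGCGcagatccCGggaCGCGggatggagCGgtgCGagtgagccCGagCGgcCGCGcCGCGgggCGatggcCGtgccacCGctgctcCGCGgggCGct
Fzd7: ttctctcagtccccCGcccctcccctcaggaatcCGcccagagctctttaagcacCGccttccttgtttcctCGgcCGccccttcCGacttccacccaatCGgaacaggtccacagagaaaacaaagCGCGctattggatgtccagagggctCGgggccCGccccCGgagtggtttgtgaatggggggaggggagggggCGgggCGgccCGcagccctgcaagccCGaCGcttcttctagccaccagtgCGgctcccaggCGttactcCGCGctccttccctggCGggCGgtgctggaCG

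To ask how H3K27me3 at these promoters differed between ex14D and control cells, the quasi-likelihood test of edgeR was run on TMM-scaled counts of the 4 libraries over 14883 promoters, with adjustment after Benjamini and Hochberg over all of them. Among the 42 genes tested, 13 had higher H3K27me3 in ex14D and 1 had lower. Over all tested promoters 5.85% were higher and 3.19% lower. The shares were 28.6% and 4.7% among the 2658 tested promoters that were at least 2-fold over input in both control libraries. The 13 were 12 ligands and the antagonist Dkk2, and the 1 was the receptor Fzd8. Ligands had a median log2 fold change of 0.82, receptors of -0.19, antagonists of -0.04 and R-spondins of 0.24, and the median of all tested promoters was -0.02. TMM scaling places the fitted log2 fold changes 0.45 above those from promoter reads alone, so a fold change below is larger than the ratio of the CPM values beside it. With library size only, the median of all promoters was -0.47, 2176 promoters were lower and 398 higher in place of 475 lower and 871 higher, and among the 43 genes 6 were higher and 4 lower. Relative to all promoters, the median of the 42 genes was 0.42 higher under either scaling. The paper reports less H3K27me3 in ex14D cells by Western blot, and at the genes it assayed by ChIP-PCR. A higher value here is a level higher relative to other promoters and does not show a larger amount of the mark.

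The 6 largest rises were at ligands, and in the fit the relative level of each of these more than doubled. Wnt5a, the main ligand of the beta-catenin independent branch (chromosome 14, 28505473 to 28527447), had 461 and 364 CPM in control and 795 and 885 CPM in ex14D. There the log2 fold change reached 1.48 (with SE the standard error, SE 0.21, adjusted p = 2.19e-05). Both ex14D libraries lay above both control libraries there and at the other 5 genes that follow. Here and below, groups that lie apart at a called gene describe its values and add no support to the call. The share of all genes with groups apart was not worked out. Wnt1 rose from 589 and 612 CPM to 1096 and 1226 CPM, with a log2 fold change of 1.40 (SE 0.20, adjusted p = 2.84e-05). Wnt10b, a ligand known from bone and fat cell differentiation, rose from 584 and 539 CPM to 1034 and 1086 CPM (log2 fold change 1.37, SE 0.20, adjusted p = 3.36e-05). Wnt1 and Wnt10b are transcribed away from each other from starts 11.7 kb apart on chromosome 15. Wnt6 and Wnt10a, the neighbours on chromosome 1, are transcribed in the same direction, and Wnt6 is known from epithelia and somites. Wnt6 had 601 and 572 CPM in control and 1019 and 1152 CPM in ex14D (log2 fold change 1.34, SE 0.20, adjusted p = 4.43e-05). Wnt10a, needed for teeth and hair, had 522 and 564 CPM in control and 896 and 959 CPM in ex14D (log2 fold change 1.22, SE 0.20, adjusted p = 0.000103). Wnt11, a ligand of cell movements in gastrulation and of heart development, had 495 and 440 CPM against 773 and 933 CPM (log2 fold change 1.32, SE 0.20, adjusted p = 5.96e-05).

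The rises at the other 7 genes were smaller, and 6 of them are ligands. Wnt2b, a ligand of the retina and liver, had 596 and 555 CPM in control and 775 and 815 CPM in ex14D, with a log2 fold change of 0.92 (SE 0.19, adjusted p = 0.00232). Wnt7a, which patterns the limb and the female reproductive tract, had 490 and 481 CPM against 632 and 710 CPM (log2 fold change 0.92, SE 0.20, adjusted p = 0.00246). Wnt3a, the ligand that keeps mesoderm progenitors of the tail bud, had 591 and 540 CPM against 689 and 771 CPM (log2 fold change 0.82, SE 0.20, adjusted p = 0.00682). None of these groups overlapped. Wnt3, required for the primitive streak, had 369 and 498 CPM against 531 and 503 CPM, the lower ex14D library just above the higher control library (log2 fold change 0.70, SE 0.20, adjusted p = 0.0251). Wnt8a, a ligand of the early posterior embryo, had 79.1 and 150 CPM against 164 and 168 CPM (log2 fold change 0.95, SE 0.25, adjusted p = 0.0152), and its control libraries differed from each other by more than the second of them from ex14D. Wnt2, a ligand of lung development, had 165 and 190 CPM against 209 and 203 CPM (log2 fold change 0.66, SE 0.21, adjusted p = 0.0490) and was the call nearest the threshold. Dkk2, the only antagonist called, had 251 and 220 CPM against 298 and 323 CPM (log2 fold change 0.85, SE 0.20, adjusted p = 0.00634).

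Fzd8, a receptor with its whole coding sequence in a single exon (chromosome 18, 9212856 to 9216201), was the only gene with lower H3K27me3. It had 188 and 141 CPM in control and 69.6 and 52.1 CPM in ex14D, with no overlap, and a log2 fold change of -0.97 (SE 0.26, adjusted p = 0.0159). Of the other 8 receptors tested, 5 had a negative and 3 a positive value, from -0.59 at Fzd5 to 0.44 at Fzd3, and none passed the threshold. The 7 ligands not called ran from -0.52 at Wnt8b to 0.62 at Wnt7b. Wnt9a, Wnt7b, Wnt9b and Wnt5b had adjusted p between 0.0642 and 0.0820 in edgeR's test, with values of 0.55 to 0.62, and Wnt4 had 0.50 and Wnt16 0.30. Antagonists other than Dkk2 lay between -0.64 at Wif1 and 0.56 at Frzb, and the R-spondins between 0.00 at Rspo4 and 0.35 at Rspo2. With library size only, Wnt16, Fzd1, Fzd3, Fzd10, Sfrp5 and the 4 R-spondins had a negative in place of a positive value, and no called gene changed sign. The window of Fzd4 overlaps that of Tmem135, that of Fzd10 the window of 5930412G12Rik and that of Wnt7b the window of AU022754. Reads that could belong to more than 1 gene were listed apart as ambiguous, so reads there may be missing from the counts. No ratio to input is given for Fzd10, whose inputs are under the floor of 3 reads.

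Part of these calls was lost when a single library was left out, which also leaves fewer libraries for the test. Without control replicate 2, or without ex14D replicate 2, 6 genes were higher in place of 13, without ex14D replicate 1 there were 9 and without control replicate 1 there were 10. The promoters of all genes called higher also fell in number, from 871 to 255 without control replicate 2, 429 without ex14D replicate 2, 475 without ex14D replicate 1 and 797 without control replicate 1. In each of these 4 fits Fzd8 was not called, with adjusted p from 0.0553 to 0.440. Wnt1, Wnt5a, Wnt6, Wnt10a and Wnt10b stayed higher in all 10 alternatives and Wnt11 in 9 of 10, whereas Wnt2 was called in 1 of 10 and Wnt3 in 3 of 10.

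**Figure D2:**
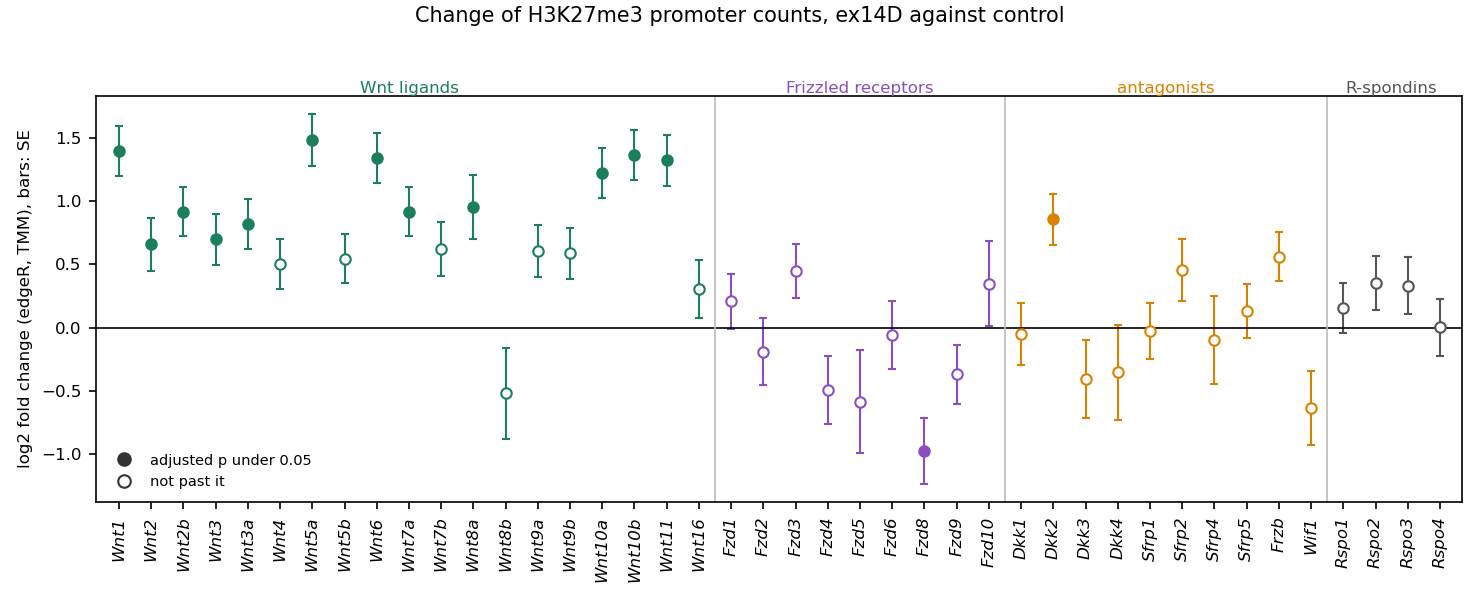
Log2 fold change of H3K27me3 promoter counts between ex14D and control (points, edgeR with TMM) with its standard error (bars) for the 42 genes tested, by role, filled where the adjusted p was under 0.05. Of the 19 ligands 18 lie above 0 and 12 are filled, and Fzd8 at -0.97 is the only filled point below 0; with library size only, the positive open points of the receptors and R-spondins, Wnt16 and Sfrp5 fall below 0.

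How far a promoter rose went along with how strongly it was marked in control, among all genes as among these. Of the promoters that exceeded input at least 8-fold in each control library, the 12 in this set had a median log2 fold change of 1.07, and the 401 of all genes, these included, had 1.00. Between 4-fold and 8-fold over input the medians were 0.50 for 9 genes of the set and 0.46 for 958 of all genes. Between 2-fold and 4-fold they were 0.30 for 13 and 0.07 for 1299. These medians are descriptions, and the control libraries enter both the level and the change.

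EZH2 itself was then compared on the same genes, with the test run over 13401 genes. Of the 43, 24 were tested and 19 were listed at 0 in all 4 EZH2 libraries, as were 43.2% of all genes. The 19 include Wnt1, Wnt3, Wnt3a, Wnt10b and Wnt11, and each of them sits in a run of 58 to 1388 neighbouring genes that are all listed at 0. At 17 of the 19 an EZH2 domain nevertheless covered the gene start in all 4 libraries, so a listed 0 is not a measurement of absence and no value is given for these genes. EZH2 counts were lower in ex14D at 14 of the 24 tested and higher at 0, against 7.88% and 0.0522% of all genes tested. In both control libraries an EZH2 domain covered the start of 38 of the 43 genes but of only 16.8% of all genes. The share lower among all genes with a domain was not worked out. At an unadjusted p under 0.05, edgeR gave 19 lower and 0 higher of the 24, and 1692 lower and 452 higher of the 13401. By adjusted p, DESeq2 called 14 lower and 0 higher of the 24, and 750 lower and 0 higher of the 13925 genes it was run on (2073 of them without an adjusted p), with 16 of the 24 and 1151 of all lower at an unadjusted p under 0.05. The 14 were 8 ligands, 4 receptors and the antagonists Sfrp1 and Frzb. Receptors had the lowest median log2 fold change, -1.48 over 6, followed by the ligands with -0.73 over 10 and the antagonists with -0.11 over 7, and the median of all tested genes was 0.02.

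The 4 largest falls of EZH2 were at receptors, with genes of 2.11 to 4.38 kb. Fzd8 had 48.8 and 51.1 CPM in control and 21.0 and 10.6 CPM in ex14D, and its log2 fold change of -1.73 (SE 0.23, adjusted p = 0.00652 from edgeR) was the largest of the 24. Fzd10 (chromosome 5, 128601106 to 128604093) had 22.4 and 25.1 CPM against 9.54 and 7.61 CPM, and fell by 1.53 on the log2 scale (SE 0.12, adjusted p = 0.00325). For Fzd1, a receptor that can signal to beta-catenin, the values were 85.0 and 87.4 CPM against 38.2 and 24.4 CPM (log2 fold change -1.52, SE 0.17, adjusted p = 0.00420). At Fzd9, a receptor of neural progenitors and bone, they were 23.1 and 20.5 CPM against 10.6 and 6.15 CPM (log2 fold change -1.44, SE 0.20, adjusted p = 0.00712). The groups were apart at all 4, with ex14D the lower. Per kb of gene, the control levels of these receptors were 7.48 to 19.97 CPM, while Fzd5 and Fzd7, whose EZH2 counts did not pass the threshold (log2 fold changes -0.06 and -0.50), had 1.05 to 2.11 CPM per kb.

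The ligands called had values from -0.98 to -0.49. Wnt10a had 233 and 238 CPM in control and 150 and 96.1 CPM in ex14D, a log2 fold change of -0.98 (SE 0.17, adjusted p = 0.0149), and its neighbour Wnt6 had 147 and 150 CPM against 94.7 and 68.5 CPM (log2 fold change -0.91, SE 0.13, adjusted p = 0.00764). Wnt5a, with 249 and 243 CPM against 171 and 119 CPM, fell by 0.80 on the log2 scale (SE 0.15, adjusted p = 0.0158). These 3 had the highest control levels of the ligands per kb, 10.9 to 19.6 CPM. At Wnt2b the values were 57.1 and 54.7 CPM against 35.6 and 31.0 CPM (log2 fold change -0.79, SE 0.08, adjusted p = 0.00341). Wnt16, a ligand of bone, had 33.3 and 25.8 CPM against 20.3 and 15.8 CPM (log2 fold change -0.75, SE 0.15, adjusted p = 0.0260). Wnt8a had 19.0 and 15.6 CPM against 11.1 and 10.7 CPM (log2 fold change -0.70, SE 0.12, adjusted p = 0.0138). The smallest of the called falls among ligands were at Wnt4, which acts in the kidney and ovary, and at Wnt7a.

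Wnt4 had 66.7 and 59.1 CPM in control against 49.4 and 38.8 CPM in ex14D (log2 fold change -0.56, SE 0.12, adjusted p = 0.0279 from edgeR). At Wnt7a the 4 libraries had 120 and 110 CPM against 89.1 and 79.4 CPM (log2 fold change -0.49, SE 0.07, adjusted p = 0.00911). In none of the 8 ligands did the groups overlap, which describes genes picked by the call and adds no support to it. The antagonists called were both of the family that binds Wnt ligands through a Frizzled-like domain. Sfrp1 had 77.8 and 89.9 CPM in control and 61.4 and 48.5 CPM in ex14D, with a log2 fold change of -0.66 (SE 0.12, adjusted p = 0.0156). Frzb had 80.0 and 80.4 CPM against 62.2 and 53.3 CPM (log2 fold change -0.52, SE 0.08, adjusted p = 0.00923). Dkk2, Dkk3, Dkk4, Sfrp2, Sfrp4, Rspo4, Wnt2 and Wnt5b did not pass the threshold, with values from -0.30 at Sfrp4 to 0.34 at Dkk4. Leaving out either control EZH2 library left 0 of the 24 genes called, and 0 of all genes, with 1372 and 1300 of all genes lower at an unadjusted p under 0.05, and all 14 kept a negative value.

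**Figure D3:**
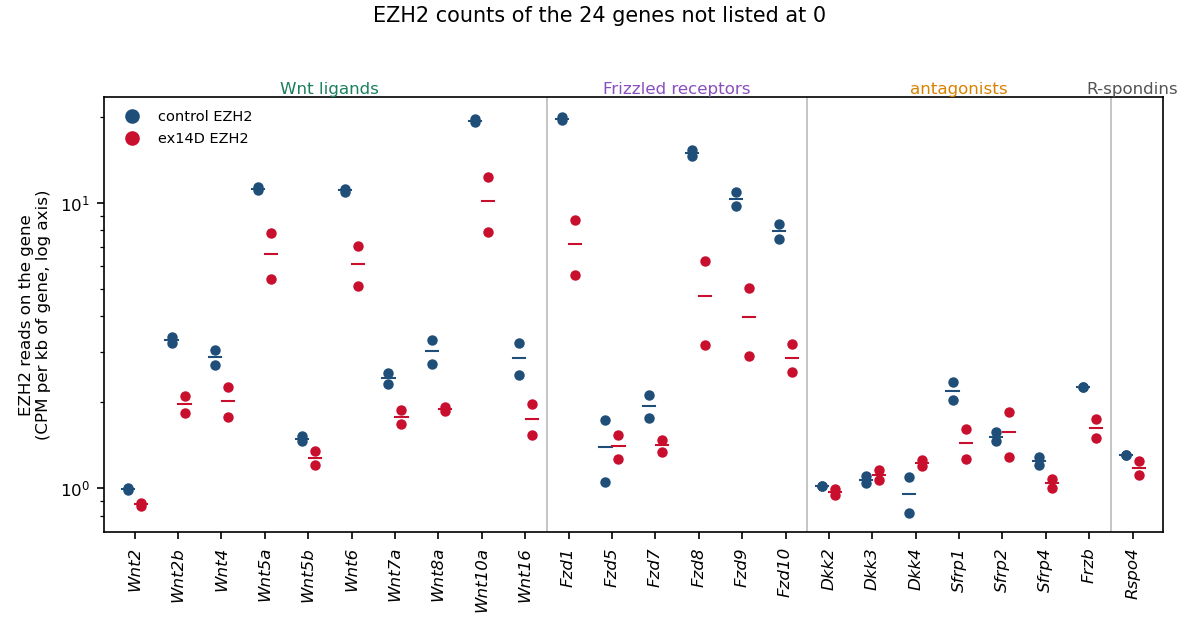
EZH2 reads on the gene in CPM and per kb of gene (log axis) in each library (points, with the mean of 2 libraries as a thin line) for the 24 genes not listed at 0, by role. Wnt10a and Fzd1 have the highest control levels, at 19.2 to 19.97 CPM per kb, and Dkk2, Dkk3, Wnt2 and Rspo4 stay near 1 in both genotypes.

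The size of the fall went along with how much of the gene lay under an EZH2 domain in control. Of the 8 genes with at least 50% of their length under a domain (mean of both control libraries), 8 were lower, with a median log2 fold change of -1.21, and they were Wnt5a, Wnt6, Wnt8a, Wnt10a, Fzd1, Fzd8, Fzd9 and Fzd10. Between 5% and 50% coverage 6 of 10 were lower, with a median of -0.51, and under 5% none of 6 was, with a median of -0.20. Across the 24 genes Spearman's rho between coverage and log2 fold change was -0.82, a description over genes that share the same libraries and are not replicates. Reads outside the domain enter the count of a long gene such as Dkk2 (95.0 kb, 2.85% covered in both control libraries), so its value of -0.11 is not a measure of EZH2 at its promoter. What part of the difference between genes this takes was not tested.

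**Figure D4:**
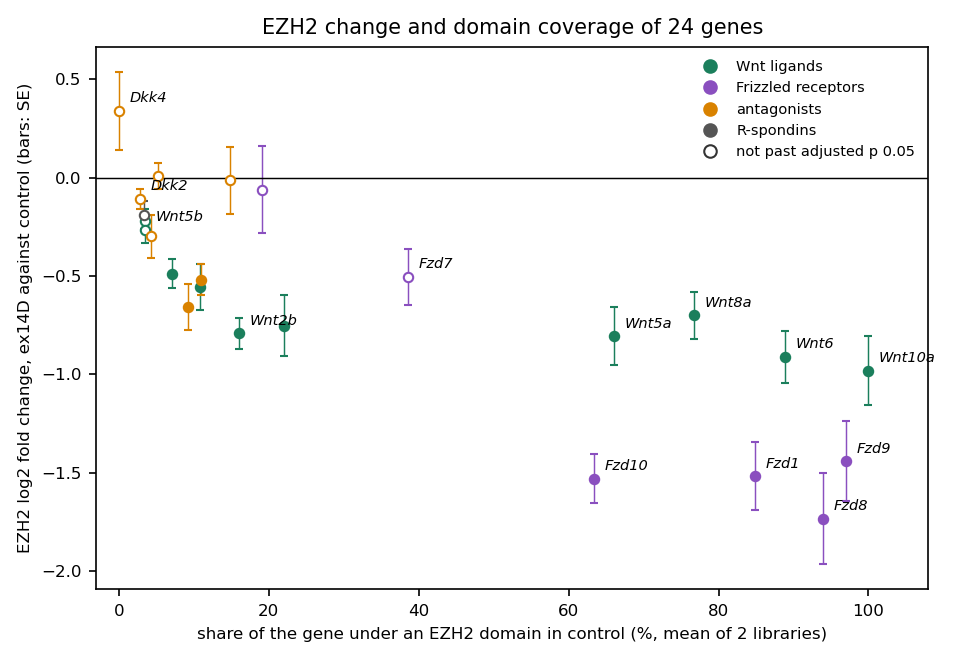
Log2 fold change of EZH2 counts (points, with standard error) against the share of the gene in percent that lay under an EZH2 domain in control, for 24 genes, coloured by role and open where the adjusted p was not under 0.05. The 4 receptors above 50% coverage lie between -1.44 and -1.73, the 4 ligands above 50% between -0.70 and -0.98, and genes under 5% between -0.30 and 0.34.

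The 2 antibodies gave different directions at the same ligands. Of the 23 genes tested with both, 8 had higher H3K27me3, and 6 of these had lower EZH2 (Wnt2b, Wnt5a, Wnt6, Wnt7a, Wnt8a and Wnt10a), while EZH2 at Wnt2 and Dkk2 did not pass the threshold, with log2 fold changes of -0.22 and -0.11. With library size only, H3K27me3 was not called at Wnt2b, Wnt7a and Wnt8a (adjusted p = 0.0713, 0.0771 and 0.182 from edgeR), which leaves Wnt5a, Wnt6 and Wnt10a, and the H3K27me3 call of Wnt8a was lost in 5 of 10 alternatives. Fzd8 was lower with both. At Fzd1, Fzd9 and Fzd10, whose EZH2 fell by 1.44 to 1.53 on the log2 scale, H3K27me3 had log2 fold changes of 0.21, -0.37 and 0.35 that did not pass the threshold. H3K27me3 was counted at the gene start and EZH2 over the gene, and both were scaled within their own libraries, so the pair of values does not give a ratio of mark to enzyme.

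**Figure D5:**
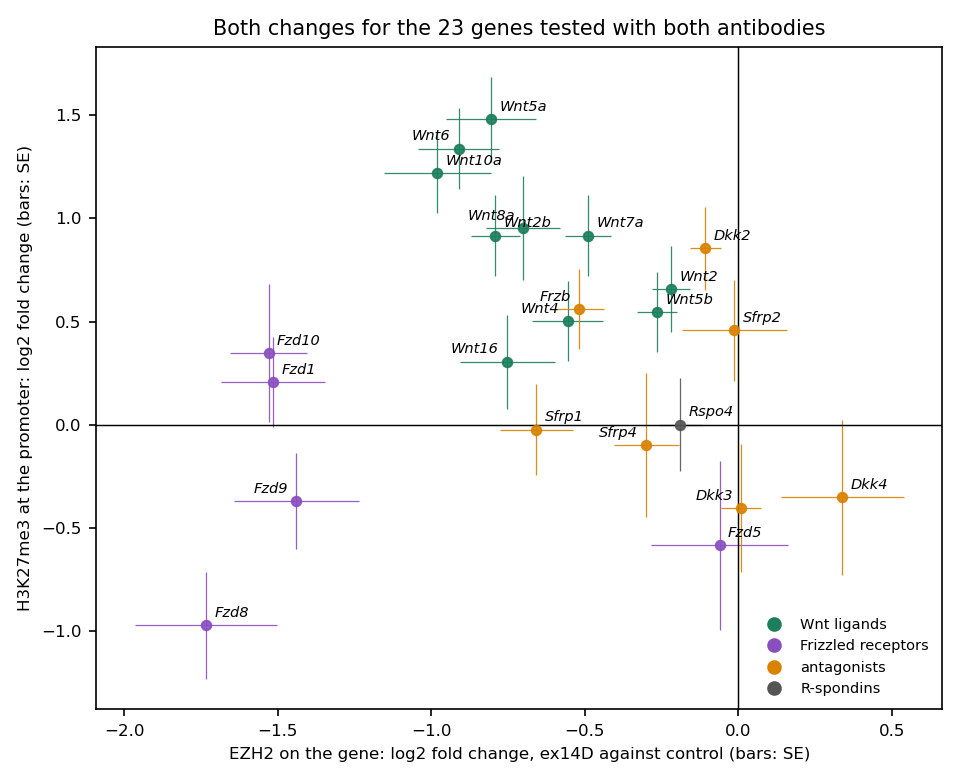
Log2 fold change of H3K27me3 at the promoter against that of EZH2 on the gene, both ex14D against control, for the 23 genes tested with both antibodies (points coloured by role, bars are standard errors). Wnt5a, Wnt6 and Wnt10a sit at the upper left, with H3K27me3 at 1.22 to 1.48 and EZH2 at -0.80 to -0.98, and Fzd8, at -0.97 and -1.73, has the lowest value on both axes and is the only gene called lower with both.

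Other genes of the pathway were seldom called, and no difference from all genes is read from so few calls. A list of 40 of them held secretion factors, co-receptors, intracellular transducers, the destruction complex, transcriptional effectors and feedback inhibitors. Of these 11 were marked in control, against 11.3% of all genes. With H3K27me3, 28 were tested, 1 was higher and 2 were lower, against 5.85% and 3.19% of all tested promoters, with a median log2 fold change of -0.15. Lef1, a transcription factor that carries beta-catenin to DNA, had 340 and 327 CPM in control and 767 and 811 CPM in ex14D, and a log2 fold change of 1.69 (SE 0.20, adjusted p = 3.57e-06 from edgeR). Notum, an enzyme that inactivates Wnt ligands by removing their lipid, had 538 and 271 CPM in control against 165 and 115 CPM in ex14D and fell by 1.07 on the log2 scale (SE 0.26, adjusted p = 0.00672 from edgeR). Dact1, an inhibitor that binds Dishevelled, had 252 and 222 CPM against 101 and 72.9 CPM and fell by 1.00 (SE 0.23, adjusted p = 0.00560 from edgeR). The control libraries of Notum differed from each other about as much as the genotype means did. With EZH2, 26 of the 40 were tested and 3 were lower, against 7.88% of all genes tested. Kremen2, a receptor for Dkk proteins, had 44.0 and 40.9 CPM in control and 21.6 and 13.5 CPM in ex14D (log2 fold change -1.33, adjusted p = 0.00608 from edgeR). The falls at Pygo1, a co-activator of beta-catenin, and at Nkd2, a feedback inhibitor, were smaller, with log2 fold changes of -0.42 and -0.37 (adjusted p = 0.0124 and 0.0415 from edgeR).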

How the data were processed

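The 43 genes, their roles and the list of 40 further pathway genes were chosen with earlier results of these data known. Reads were aligned by the authors with Bowtie to mm10 and counted with htseq-count. The counts were deposited by the authors as whole reads with no normalization. The authors called H3K27me3 peaks with MACS2 in each library, and the deposited −log10 q and −log10 p, fold enrichment and score are those of the peak caller, of which the score and p were not used. EZH2 domains are from hiddenDomains. The H3K27me3 domains, whose coordinates are of another assembly, were not used.

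Counts were compared for each antibody, 2 libraries against 2, with edgeR 4.0.16 in R 4.3.3 (TMM, filterByExpr, quasi-likelihood F test, threshold 0.05). Each standard error was obtained by dividing the fold change (log2) by the root of F. Reads on no gene were 97.9% to 98.0% of counted reads in inputs, 92.0% to 94.0% for H3K27me3 and 33.8% to 34.9% for EZH2, and stayed out of library sizes. Enrichment over input is log2((CPM + 1)/(input CPM + 1)). Gene starts of 24361 genes come from RefSeq transcripts on GRCm38, and an interval counted with an overlap of 1 bp.

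Genes past the threshold are given in full, with the 3 highest and the lowest control H3K27me3 levels of each role. The sequence rule named the 2 largest rises and 2 largest falls past the threshold, of which only Wnt1 could be printed. Alternatives were library size only, all counted reads as library size, DESeq2 1.42.0, no filter, a replicate block, other overlaps, windows and thresholds, and each library left out in turn. Tables and plots were made in Python 3.11.15 with pandas 2.3.3 and matplotlib 3.10.9.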

Additional observations from a re-analysis of the deposited data

How the results depend on the processing

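Of 266 values of called genes under an alternative, 198 stayed past the threshold, 68 did not and 0 reversed. For H3K27me3, library size only gave 6 higher and 4 lower genes in place of 13 and 1, and the median of the 42 genes turned from 0.40 to -0.0491, with the median of all promoters at -0.47. The median was 0.27 with all counted reads as library size and 0.31 with DESeq2, which left 3 of the 43 genes without an adjusted p. Leaving out 1 library gave 6 to 10 higher and 0 to 0 lower H3K27me3 genes with a median of 0.29 to 0.50, and 0 to 17 lower EZH2 genes with a median of -0.70 to -0.45. Without either control EZH2 library no gene of the series was called in edgeR. Such fits have 1 residual degree of freedom and assume that the lone library varies like the others. A threshold of 4-fold over input left 21 in place of 34 genes marked in control and 23 in place of 29 in ex14D. Peaks with q under 0.001 left 25 in place of 38 genes in control and 29 in place of 37 in ex14D. Under both of these settings ex14D had the higher count. The other alternatives for marks, peaks and domains stayed within 1.5 times the reported counts.

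Replicate numbers are shared by the genotypes, but samples of the same number did not deviate together (correlation -0.10 for H3K27me3 and -0.03 for EZH2). The EZH2 libraries of ex14D differed from each other more than those of control, with a chi-square of counts per degree of freedom of 3.95 against 1.48. With the replicate block 11 genes were higher and 1 lower for H3K27me3 and 14 lower for EZH2, and Wnt2, Wnt3 and Sfrp1 were not called. With the crossed pairing, added after the data were seen, 19 were higher and 1 lower for H3K27me3. Over all 14883 promoters tested, the replicate block gave 755 higher and 406 lower. The crossed pairing gave 1185 higher and 795 lower of all promoters, against 871 and 475 without a block. For EZH2, 852 of all genes were lower with the replicate block, against 1056 without it. Depth limits the weak promoters, since 3 reads are worth 2.07 to 5.05 CPM in an H3K27me3 library.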
